A study of Mus musculus with 6 samples.

Results

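Sterol and fatty acid synthesis was followed through 31 genes, chosen by name from the deposited table, in which 12008 genes could be tested: enzymes of the mevalonate and cholesterol pathway, regulators of the SREBP transcription factors, and enzymes of fatty acid and phosphatidate metabolism. Each was found once, and all 31 were among the genes tested. Msmo1 is written Sc4mol in the table and is called that here. The cells were LT-HSC, the long-term stem cells of bone marrow that sustain blood formation for life, taken from C57BL/6 mice and sorted as lineage-depleted, Sca-1+ Kit+ cells with the surface profile CD34- CD150+ CD48- Flk2-. The compared groups were 3 libraries of mice homozygous for an ENU-induced allele named Ms T-less of Itpkb, written IPTKB-/- in the sample labels and Itpkb-/- here, and 3 libraries of wild-type litter mates. Every library pooled 4 mice, which the labels call age-matched without giving an age or sex, and the allele was present in the whole animal, with no Cre or transgene named. Itpkb encodes an inositol-trisphosphate 3-kinase.

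Cholesterol is built from acetyl-CoA through mevalonate, the prenyl diphosphates, squalene and lanosterol, and the same prenyl diphosphates supply protein prenylation and coenzyme Q. SREBP2, the product of Srebf2, is the transcription factor that is best known for driving the genes of this pathway, and SREBP1, from Srebf1, for driving those of fatty acid synthesis. When membrane sterol is low, SCAP carries the SREBP precursors from the endoplasmic reticulum to the Golgi, where they are cleaved. INSIG proteins hold SCAP back when sterol is high, and Insig1 is itself a target of the SREBPs.

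Depth and identity of the libraries set the frame for these genes. The libraries held 4024203 to 7470329 recovered reads. Values are normalized CPM, read counts divided by 1 factor per library and not by library size alone. In this unit 1 read made up 0.131 to 0.249. Itpkb read 10.2 to 18.2 normalized CPM in the Itpkb-/- group against 22.1 to 25.1 in wild type, without overlap. Its difference missed the test (limma, adjusted p = 0.172) but not the fit that takes the library number as a block (0.0541). The 8 stem cell markers were detected in every library, with a summed level of 1604 to 2149 normalized CPM in Itpkb-/- and 2706 to 3295 in wild-type libraries, and 5 of the 8 fell (limma), 6 with the block. The 10 granulocyte markers summed to 6160, 18208 and 904 in Itpkb-/- libraries 1, 2 and 3 and to 3549, 2590 and 688 in wild-type libraries, and none of the 10 was called by limma without the block. With the block all 10 rose, and DESeq2 called Ctsg (adjusted p = 0.149) and Ms4a3 (0.111) higher. Itga2b, the megakaryocyte and stem cell integrin, rose (2.21-fold by the means, limma adjusted p = 0.00831), as did Epor, the erythropoietin receptor (1.85-fold, adjusted p = 0.123). Megakaryocyte markers summed to 723 to 1582 in Itpkb-/- and 665 to 828 in wild-type libraries, erythroid markers to 130 to 597 and 163 to 433, monocyte and macrophage markers to 19.4 to 35.7 and 14.1 to 21.5, and B cell markers to 29.0 to 37.1 in all, with Pax5 at 0. Markers of T cells summed to at most 9.31, with Cd3g and Cd8a at 0 in all 6 libraries, and those of stroma and fat cells to at most 1.49, with the fat cell gene Plin1 and Lepr at 0. In sorted bulk RNA, fewer cells that express a gene and less of its RNA per cell cannot be told apart.

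The promoters shown here are those of Hmgcs1, the 1 member whose window holds the letters searched for a sterol response element, and of Insig1, the sterol sensor discussed below, which was chosen after its values were seen. RefSeq (build GRCm38.p6) gave a window of 250 bases before the transcript start for 25 of the 31 genes. The other 6, Scd1, Scd2, Sqle, Stard4, Fdps and Fdft1, had no window and were not searched. Scd1, Scd2, Sqle and Stard4 are among the genes called below, so the counts of letters leave them out. Capitals mark TCACNCCAC (the core of a sterol response element, the kind of site that SREBPs bind), CACGTG (an E-box) and CCAAT (a site of NF-Y), on either strand.
Hmgcs1, chr13:119690101-119690350, plus strand: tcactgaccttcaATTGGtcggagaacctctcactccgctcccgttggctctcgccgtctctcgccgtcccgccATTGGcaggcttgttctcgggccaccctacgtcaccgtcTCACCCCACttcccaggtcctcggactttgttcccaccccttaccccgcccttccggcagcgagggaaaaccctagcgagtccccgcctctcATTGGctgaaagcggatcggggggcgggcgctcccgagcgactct
Insig1, chr5:28071162-28071362, plus strand: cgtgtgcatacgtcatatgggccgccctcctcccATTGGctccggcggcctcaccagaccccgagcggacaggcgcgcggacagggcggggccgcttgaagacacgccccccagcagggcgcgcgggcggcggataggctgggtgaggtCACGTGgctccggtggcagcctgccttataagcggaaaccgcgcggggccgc
In the Hmgcs1 window the sterol response element letters begin 137 bases before the start, and CCAAT letters, read on the other strand as ATTGG, begin 237, 176 and 45 bases before it. The Insig1 stretch stops at the first annotated start and holds ATTGG 216 bases and CACGTG 101 bases before the RefSeq start. TCACNCCAC was in the windows of 1 of the 25 genes and of 1.24% of the 9022 tested genes that have windows. CCAAT was in 19 of 25 genes (76%) against 40.8%, CACGTG in 5 (20%) against 10.04%, and GGGCGG (a GC box), which the capitals leave out, in 20 (80%) against 64.4%. No capitals of one kind overlap those of another in the printed stretches, and a match describes the sequence only. The search was for exact letters within 250 bases, so a gene without a match may still have a site.

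All 31 genes passed the filter on low values, so no member is missing from the test. In the fit without the block, Scd1 and Scd2, the stearoyl-CoA desaturases that make oleate and palmitoleate from saturated fatty acids, fell in Itpkb-/- LT-HSC, no member rose, and the other 29 genes did not pass (limma, adjusted p of at most 0.15, the limit of the series design text). The 2 make up 6.45% of the members, where 5.5% of all genes tested were called in either direction, 3.24% lower and 2.27% higher, a share near that of the members. The count tests edgeR and DESeq2, run on the reads recovered from the values, called the same 2 members, where they called 6.02% and 6.82% of their genes. Of the 31 genes, 19 had a negative log2 difference (61.3%, against 49.8% of all genes tested), and their median log2 difference was -0.18 against 0.00183 for all genes. Without the block, 2 of the 31 had an unadjusted p under 0.05 (limma, 6.45%, against 15.5% of all genes tested). With the replicate number as a block, 7 genes fell and none rose (limma). That is 22.6% of the members, where 8.97% of all genes fell and 9.15% rose. The 7 were Scd1, Scd2, Insig1, Sc4mol, Sqle, Dhcr7 and Stard4. The series design text also asks for a fold change above 1.4 (0.49 on the log2 scale), which was not applied here and which 5 of the 7 pass, Sqle and Stard4 being under it. All 10 granulocyte markers rose in the same fit, and their part in these calls was not tested.

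**Figure D1:**
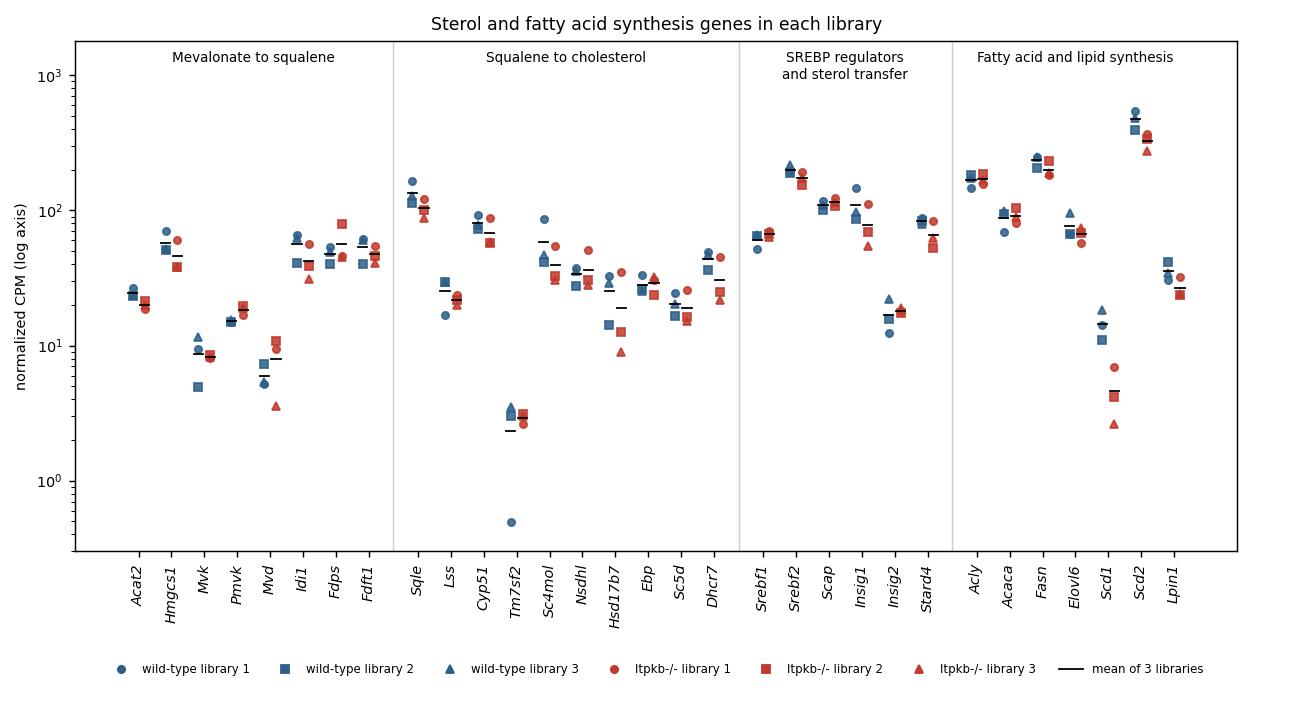
Normalized CPM on a log axis of the 31 genes in each of the 6 libraries, grouped by role, with wild-type libraries in blue, Itpkb-/- libraries in red, marker shapes for the library numbers and black bars for the mean of 3 libraries. Scd1 (2.62 to 6.97 against 10.9 to 18.4) and Scd2 (275 to 369 against 390 to 544) are 2 of the 3 genes whose red points all lie below the blue ones, Acat2 being the third, and Tm7sf2 reaches the lowest single value.

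Per kilobase of annotated exon, which allows genes to be compared, Scd2 had the highest level of the 31 in wild-type cells, with 99.7, 71.5 and 88.6 normalized CPM per kilobase in libraries 1, 2 and 3. Its lowest wild-type library lay above the highest of the next gene, Sqle (41.3 to 59.5). Sqle, Insig1 (31.9 to 53.8), Srebf2 (37.2 to 42.4), Acly (31.99 to 39.4) and Fdps (27.5 to 36.97) followed, with ranges that overlapped from one to the next. Tm7sf2 (0.294 to 2.09) and Scd1 (2.26 to 3.81) were lowest, and those 2 did not overlap in wild-type cells. In Itpkb-/- cells Scd1 was the lowest of all 31, at 0.542 to 1.44, below Tm7sf2 at 1.54 to 1.83, while Scd2 was highest by its mean, at 50.4 to 67.6, with a range that overlapped that of Fdps (31.1 to 54.6).

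Scd1 (build mm10, chromosome 19, 44394455 to 44407879, minus strand) read 6.97, 4.20 and 2.62 normalized CPM in Itpkb-/- libraries 1, 2 and 3. In wild-type libraries 1, 2 and 3 it was at 14.2, 10.9 and 18.4. The highest Itpkb-/- library lay under the lowest wild-type one, with means of 4.60 ± 2.20 and 14.5 ± 3.77 (SD, n = 3 each), so that the mean in Itpkb-/- cells was 0.317 of that in wild type. On the scale of log2(value + 1), used for all log2 differences here, Scd1 fell by 1.52 (SE 0.34, 95% interval -2.27 to -0.76, limma adjusted p = 0.0591). The lowest library held 20 reads of Scd1. The call was lost without wild-type library 3 (adjusted p = 0.280) and without both libraries numbered 2 (0.199), where the log2 differences were -1.34 and -1.68, and it held without each of the other 5 libraries.

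Scd2 (chromosome 19, 44293674 to 44306864, plus strand) was at 369, 339 and 275 normalized CPM across Itpkb-/- libraries 1, 2 and 3, and at 544, 390 and 483 across those of wild type. The highest Itpkb-/- library lay just below the lowest wild-type library. Its mean was 327 ± 48.0 against 472 ± 77.5 (SD, n = 3 each), 0.693 of wild type, and the log2 difference was -0.53 (SE 0.16, 95% interval -0.87 to -0.18, limma adjusted p = 0.137). This call rests on narrow ground: it was lost without Itpkb-/- library 2 (adjusted p = 0.236), Itpkb-/- library 3 (0.263), wild-type library 1 (0.357) or wild-type library 3 (0.406), and without both libraries numbered 2 (0.248), with log2 differences of -0.40 to -0.69. The desaturase genes neighbour each other and resemble each other. Of the 50-base stretches in annotated Scd1 transcripts 4.56% also occur in transcripts of another gene, mostly Scd3. For Scd2 the share was 3.97%, mostly with Scd1 (2.655%). Scd2 lay far above Scd1 in every library, and how far its reads added to those of Scd1 was not tested. The granulocyte and stem cell marker sums given above differ between the same libraries, and their part in the fall of Scd1 and Scd2 was not tested.

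**Figure D2:**
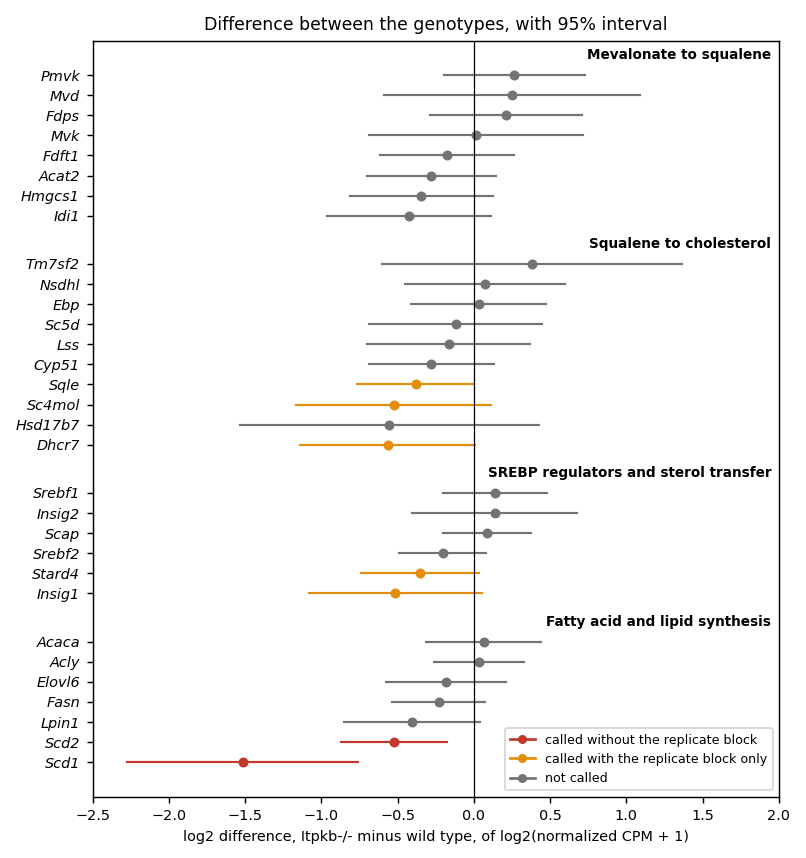
Log2 difference of each gene, Itpkb-/- minus wild type, of log2(normalized CPM + 1), with its 95% interval, in 4 role groups. The intervals of Scd1 (-2.27 to -0.76) and Scd2 (-0.87 to -0.18), in red, lie below 0, and the 5 genes in orange, called with the replicate block and not without it over all 6 libraries, have intervals that reach 0.

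The enzymes that supply and lengthen fatty acids before desaturation did not pass. Fasn, the fatty acid synthase, was at 182, 231 and 189 normalized CPM in the Itpkb-/- group, and at 247, 208 and 250 in the wild-type group, with overlapping groups and a log2 difference of -0.23 (95% interval -0.54 to 0.08, limma adjusted p = 0.466). Acly, which makes cytosolic acetyl-CoA from citrate, was at 157, 187 and 168 against 147, 181 and 172, a log2 difference of 0.03 (-0.26 to 0.33). Acaca, the acetyl-CoA carboxylase that makes malonyl-CoA, was at 80.6, 103 and 90.04 against 69.4, 94.8 and 99.8 (0.06, -0.31 to 0.44), and 30.4% of its 50-base stretches occur in another gene's transcripts, mostly those of Gm5182. Acly and Acaca were each lowest in library 1 of both genotypes. Elovl6, the elongase from palmitate to stearate, was at 57.5, 67.8 and 74.4 against 67.4, 66.5 and 95.3 (-0.18, -0.58 to 0.21).

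Lpin1 encodes a phosphatidate phosphatase that makes diacylglycerol and that also acts on transcription in the nucleus. It was at 32.2, 23.6 and 24.1 normalized CPM across Itpkb-/- libraries 1, 2 and 3, and at 30.6, 41.7 and 34.4 across those of wild type. Itpkb-/- library 1 lay above wild-type library 1, so the groups overlapped, and the log2 difference of -0.41 (95% interval -0.85 to 0.04) did not pass (limma, adjusted p = 0.371).

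Among the SREBP regulators, Insig1 had the lowest log2 difference and differed in the same direction within each library number. It was at 111, 69.0 and 54.1 normalized CPM across Itpkb-/- libraries 1, 2 and 3, and at 145, 85.9 and 97.9 across those of wild type. Library 1 was the highest in both genotypes, so Itpkb-/- library 1 lay above wild-type libraries 2 and 3. Means were 77.9 ± 29.3 and 109.7 ± 31.4 (SD, n = 3 each), and the log2 difference of -0.52 (95% interval -1.08 to 0.05) did not pass (limma, adjusted p = 0.372). Within library numbers 1, 2 and 3 the differences were -0.39, -0.31 and -0.84, and the fit with the replicate block called Insig1 (limma, adjusted p = 0.0254). Without Itpkb-/- library 1, and with no block, it was also called (log2 difference -0.80, adjusted p = 0.106). Of the fits without 1 library this was the only 1 with a call, and the adjusted p reached 0.701 without wild-type library 1 (limma).

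Insig2, the other sterol-dependent anchor of SCAP, was at 17.9, 17.4 and 19.0 normalized CPM in the Itpkb-/- group, and at 12.4, 15.8 and 22.2 in the wild-type group. The Itpkb-/- values fell inside the wild-type range, and the log2 difference was 0.14 (95% interval -0.41 to 0.68). Srebf2 was at 193, 154 and 174 against 195, 189 and 215, a log2 difference of -0.21 (-0.49 to 0.08), lower in each same-numbered pair but with overlapping groups. For Srebf1 the values were 70.6, 66.4 and 63.04 against 51.7, 64.4 and 66.1 (0.14, -0.20 to 0.48, adjusted p = 0.727). Scap stood at 124, 108 and 116 against 117, 101 and 110 (0.08, -0.20 to 0.37), higher in each same-numbered pair by 0.07 to 0.10.

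Stard4, which carries cholesterol between membranes and is a known target of SREBP2, was at 83.4, 53.0 and 62.0 normalized CPM in the Itpkb-/- group, and at 87.5, 82.8 and 79.9 in the wild-type group. Itpkb-/- library 1 lay inside the wild-type range and libraries 2 and 3 below it. Its log2 difference of -0.35 (95% interval -0.74 to 0.03) did not pass (limma, adjusted p = 0.366) and passed with the replicate block (adjusted p = 0.128). Of the fits without 1 library and with no block, 1 called Stard4 (limma, adjusted p = 0.114). The adjusted p reached 0.725 without Itpkb-/- library 2 (limma).

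From acetyl-CoA to squalene, none of 8 genes passed (limma, none at an unadjusted p under 0.05, none by edgeR, none with the block), and 4 had negative and 4 positive log2 differences, with a median of -0.08. Idi1, the isomerase of isopentenyl diphosphate, was at 56.2, 38.8 and 31.2 normalized CPM in the Itpkb-/- group, and at 65.9, 40.5 and 62.9 in the wild-type group, with overlapping groups (log2 difference -0.42, 95% interval -0.96 to 0.11). Hmgcs1, the cytosolic HMG-CoA synthase whose promoter is printed above, was at 60.3, 38.4 and 38.4 against 69.9, 50.7 and 52.1. Like Insig1 it was highest in library 1 of both genotypes and lower in each same-numbered pair, by a log2 difference of -0.21, -0.39 and -0.43, and it did not pass with the block (limma, adjusted p = 0.158). Of the 50-base stretches of Idi1 25.3% occur in other genes' transcripts, mostly Gm13502, and of those of Hmgcs1 11.6%, mostly Gm48342. On the other strand, Gm48574 overlaps 10.7% of the exon bases of Idi1 and Gm48342 16% of those of Hmgcs1.

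Acat2 and Pmvk were the members of this stretch whose groups did not overlap. Acat2, the cytosolic thiolase that joins acetyl-CoA units, was at 18.7, 21.3 and 19.9 normalized CPM in the Itpkb-/- group, and at 26.6, 23.2 and 23.6 in the wild-type group (log2 difference -0.28, 95% interval -0.70 to 0.15). Of its 50-base stretches 39.1% also occur in transcripts of Acat3, so its reads may have been divided between these genes. Pmvk, phosphomevalonate kinase, was at 16.8, 19.6 and 18.9 against 14.92, 14.95 and 15.5, higher in all 3 Itpkb-/- libraries, with a log2 difference of 0.27 (-0.19 to 0.73). Neither passed the test (limma, adjusted p = 0.542 and 0.597). Groups without overlap were seen in 3 members that were lower (9.68%, against 11.3% of all genes tested) and 1 that was higher (3.23%, against 10%).

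The other 4 genes of this stretch did not pass either. Mvk, mevalonate kinase, lay at 8.06 to 8.55 normalized CPM in Itpkb-/- libraries, inside the wild-type range of 4.93 to 11.5. Mvd, mevalonate diphosphate decarboxylase, ranged from 3.54 to 10.9 against 5.22 to 7.32, and without Itpkb-/- library 2 its log2 difference turned from 0.25 to -0.013. Fdps, farnesyl diphosphate synthase, was at 79.4 in Itpkb-/- library 2 and at 39.9 to 53.7 in the other 5 libraries, and its log2 difference turned from 0.21 to -0.052 without that library, the one with the highest granulocyte sum. Of the exon bases of Fdps 77.4% overlap the annotated gene Gm43738 on the same strand. Fdft1, squalene synthase, was at 54.7, 46.3 and 40.6 against 60.9, 40.4 and 60.5 (log2 difference -0.17), and 20.9% of its exon bases overlap Ctsb on the other strand, whose reads an unstranded library cannot separate.

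From squalene to cholesterol, 7 of 10 genes had a negative log2 difference, with a median of -0.22. None passed (limma, none at an unadjusted p under 0.05, none by edgeR), and 3 fell with the replicate block (30%, against 8.97% of all genes tested). Sqle, the squalene epoxidase and a control point of the pathway, was at 122, 101 and 87.3 normalized CPM across Itpkb-/- libraries 1, 2 and 3, and at 164, 114 and 128 across those of wild type. Only Itpkb-/- library 1 rose above the lowest wild-type library. The log2 difference was -0.38 (SE 0.17, 95% interval -0.76 to 5.4e-05, limma adjusted p = 0.323), and with the block the adjusted p was 0.0512.

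Sc4mol, the sterol C4 methyl oxidase, was at 54.9, 32.9 and 30.4 normalized CPM in the Itpkb-/- group, and at 86.3, 41.2 and 47.1 in the wild-type group. Library 1 was highest in both genotypes, and the groups overlapped. Its log2 difference was -0.52 (95% interval -1.16 to 0.11, limma adjusted p = 0.421) and ran from -0.64 to -0.32 within library numbers (block adjusted p = 0.0439). Dhcr7, the reductase that makes cholesterol from 7-dehydrocholesterol, was at 45.3, 24.9 and 21.8 against 49.2, 36.02 and 46.5 (log2 difference -0.57, 95% interval -1.14 to 0.01, adjusted p = 0.333, block adjusted p = 0.0814). Without Itpkb-/- library 1 and with no block, Dhcr7 was called (log2 difference -0.88, adjusted p = 0.0757). No other fit without 1 library called Dhcr7, and its adjusted p reached 0.613 without Itpkb-/- library 2 (limma).

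Hsd17b7, which reduces the 3-keto sterol intermediates, was at 35.1, 12.6 and 8.91 normalized CPM in the Itpkb-/- group, and at 32.6, 14.2 and 29.2 in the wild-type group. Library 2 was low in both genotypes and library 3 was low in Itpkb-/- cells alone, and the log2 difference of -0.56 (95% interval -1.54 to 0.43) did not pass (limma, adjusted p = 0.607, block adjusted p = 0.259). Without Itpkb-/- library 1 it was called (log2 difference -1.10, adjusted p = 0.141). No other fit without 1 library called it, and the adjusted p reached 0.903 without Itpkb-/- library 3 (limma).

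The other 6 genes of these late steps did not pass. Cyp51, the lanosterol demethylase, was at 87.1, 57.03 and 58.5 normalized CPM against 92.3, 72.5 and 78.2 in wild-type libraries, lower in each same-numbered pair (log2 difference -0.28). Lss, which closes the sterol rings, ranged from 20.1 to 23.7 against 16.9 to 29.7 (-0.17), and Sc5d, the sterol C5 desaturase, from 15.1 to 25.7 against 16.4 to 24.4 (-0.12). Nsdhl, a C4 decarboxylating dehydrogenase, ranged from 28.2 to 50.5 against 27.8 to 37.6 (0.07), and Ebp, the sterol isomerase, from 23.8 to 32.2 against 25.3 to 33.1 (0.03). Tm7sf2, a sterol C14 reductase, was at 2.61 to 3.11 in Itpkb-/- libraries and at 0.497, 2.99 and 3.54 in wild-type libraries, where the first value is 2 reads, under the floor of 3 reads taken for detection.

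**Figure D3:**
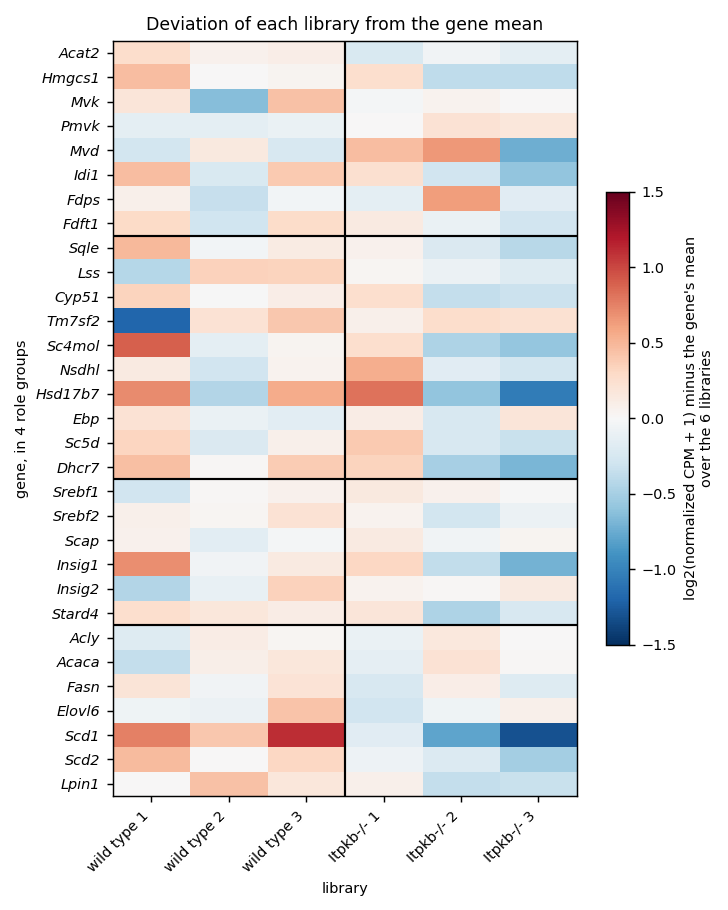
Deviation of each library from the mean of each gene over the 6 libraries, on the scale of log2(normalized CPM + 1), for the 31 genes in 4 role groups, with red for higher and blue for lower. Wild-type library 1 and Itpkb-/- library 1 are red for Insig1, Sc4mol, Hsd17b7 and Dhcr7, Itpkb-/- library 3 is blue for the same 4, and Scd1 is red in all wild-type and blue in all Itpkb-/- libraries.

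Across the 31 genes, wild-type library 1 held the highest value for 12 genes and Itpkb-/- library 3 the lowest value for 10, while Itpkb-/- library 3 held no highest and wild-type library 3 no lowest value. Over the 18 sterol enzymes the mean log2 level was 4.997, 4.69 and 4.49 in Itpkb-/- libraries 1, 2 and 3 and 4.98, 4.68 and 4.95 in wild-type libraries. Differences within the library numbers were 0.02, 0.01 and -0.46, so that the libraries numbered 3 alone showed a lower mean in Itpkb-/- cells. Over the 7 genes of fatty acid and lipid synthesis the same differences were -0.25, -0.26 and -0.67. Without Scd1 and Scd2 they were -0.059, -0.089 and -0.29 over the other 5 genes, of which Acly and Acaca were higher in Itpkb-/- cells within numbers 1 and 2. Of all 31 genes, 12 were lower within each number (38.7%, against 21.8% of all genes tested) and 2, Pmvk and Scap, were higher within each (6.45%, against 21.8%).

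Genes around these members, from 6 lists of other lipid genes, were tested in the same fit. The table holds 106 of the listed genes, of which 97 were tested, 1 rose and 5 fell (6.19%, against 5.5% of all genes), and with the block 9 rose and 11 fell (20.6%, against 18.1% of all genes).

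In the list of other sterol and prenyl enzymes, 12 were tested, 1 fell and 1 rose. Fnta, the alpha subunit of protein farnesyltransferase, was at 46.4, 51.1 and 55.04 normalized CPM in the Itpkb-/- group, and at 76.3, 74.7 and 75.8 in the wild-type group, well apart (log2 difference -0.57, SE 0.14, limma adjusted p = 0.0854). Pdss1, a subunit of the synthase that makes the coenzyme Q side chain, was at 6.97, 9.79 and 11.7 against 2.98, 4.18 and 4.10, also without overlap (log2 difference 1.12, SE 0.31, adjusted p = 0.106). Both calls were lost without Itpkb-/- library 2 or any 1 of the wild-type libraries, where the adjusted p reached 0.311 for Fnta and 0.286 for Pdss1, and that of Pdss1 also without Itpkb-/- library 3. Of the exon bases of Pdss1 17.2% overlap A130006I12Rik and Abi1 on the other strand. Of its 50-base stretches 6.27% occur in transcripts of other genes, mostly Abi1.

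Among 13 genes of sterol efflux, esterification, transport and oxysterols, Cyp7b1, the oxysterol 7-alpha-hydroxylase, fell and the others did not pass. It was at 4.79, 4.20 and 5.77 normalized CPM in the Itpkb-/- group, and at 14.4, 10.6 and 11.9 in the wild-type group, a log2 difference of -1.17 (SE 0.27, limma adjusted p = 0.0643). Without 1 library the adjusted p reached 0.250, and the call was lost without Itpkb-/- library 2, wild-type library 1 or wild-type library 3. Of the 10 genes of SREBP processing and sterol-triggered degradation none passed (limma, none at an unadjusted p under 0.05, none by edgeR). Erlin1, a protein of the endoplasmic reticulum membrane, had a log2 difference of 0.24 (limma, adjusted p = 0.441).

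Of 25 other genes of fatty acid synthesis, elongation, desaturation and activation, Elovl7 and Me1 fell. Elovl7, an elongase of long-chain fatty acids, was at 18.5, 13.2 and 16.3 normalized CPM in the Itpkb-/- group, and at 35.6, 23.3 and 29.04 in the wild-type group (log2 difference -0.83, SE 0.23, limma adjusted p = 0.112). Me1, the malic enzyme that yields NADPH for lipid synthesis, was at 0.218, 0.622 and 2.75 against 5.22, 3.89 and 3.91 (log2 difference -1.44, adjusted p = 0.148). The lowest Me1 value is a single read, 28.3% of its 50-base stretches occur in other genes, mostly Gm7049, and edgeR did not call it (adjusted p = 0.248). Elovl7 lost its call without Itpkb-/- library 2 or 3 or wild-type library 1 or 3 (adjusted p up to 0.341), and Me1 lost it without any 1 library except Itpkb-/- library 3 (up to 0.369).

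Of 21 genes of fatty acid oxidation tested, Ppargc1a, a coactivator of mitochondrial genes, fell, from 11.2, 5.68 and 6.33 normalized CPM in wild-type libraries to 0.436, 1.09 and 3.54 in Itpkb-/- libraries (log2 difference -1.82, SE 0.45, limma adjusted p = 0.0817), the lowest value being 2 reads. Its call was lost without Itpkb-/- library 2 or any 1 wild-type library (adjusted p up to 0.268). With the block 5 of the 21 were called (23.8%, against 18.1% of all genes): Ppargc1a fell and 4 rose. The 4 were Slc25a20 (0.57), the carnitine carrier, Acadl (0.45), the long-chain acyl-CoA dehydrogenase, Acaa2 (0.38) and Etfb (0.27). None of 16 glycerolipid genes passed (limma, 3 at an unadjusted p under 0.05, none by edgeR), and the 2 with the smallest p were the acyltransferases Agpat4 (-0.71, adjusted p = 0.207) and Agpat3 (-0.53, adjusted p = 0.254), both of which fell with the block. In that fit Pcyt1a, which makes CDP-choline (0.27), and the diacylglycerol acyltransferase Dgat2 (1.91) rose. Dgat2 had 26.7 normalized CPM in Itpkb-/- library 2 and at most 3.05 in each of the other 5 libraries. In all, 4 of the 16 glycerolipid genes were called with the block (25%, against 18.1% of all genes). Among the other fatty acid desaturases, Fads1 (-0.20, adjusted p = 0.544), Fads2 (-0.075, 0.890) and Fads3 (-0.82, 0.289) did not pass without the block, and Fads3 fell with it (0.0931).

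**Figure D4:**
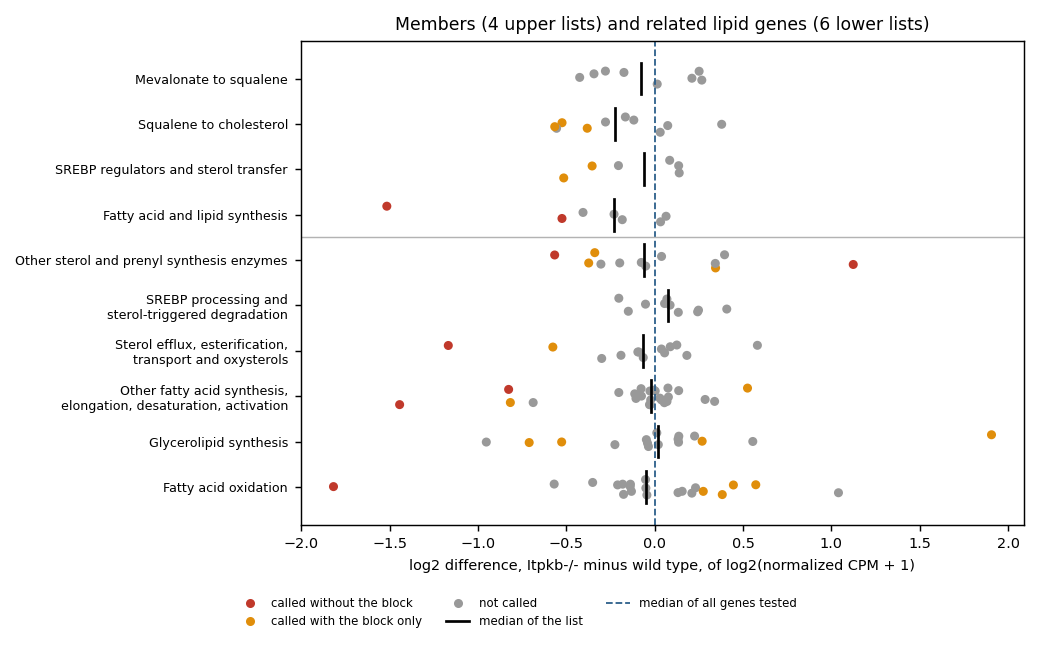
Log2 difference, Itpkb-/- minus wild type, of log2(normalized CPM + 1) for each tested gene of the 4 member lists and 6 related lists, with list medians as black bars and the median of all genes tested (0.00183) as a dashed line. Scd1 (-1.52) and Scd2 (-0.53) are the only red points in the 4 upper lists, and the medians of the 6 lower lists lie between -0.07 and 0.08.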

How the data were processed

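RNA-seq libraries of sorted LT-HSC, 3 per genotype from pools of 4 mice, were prepared from 1 to 5 ng of RNA with a NuGEN Ovation kit, per the labels' protocols. The submitters' processing notes name CASAVA 1.8.2, cutadapt, TopHat2 2.0.8b, Partek, edgeR and build mm10, while the series design text names TopHat 1.4.1 and Partek 6.6. The deposited signal is gene counts that the authors divided by 1 factor per library, on the scale of CPM. All values (100%) lay within 0.01 of a whole number of reads, and the recovered reads served the count tests. No column was left out.

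Testing covered the 12008 genes that reached 1 in 3 or more libraries and was done with limma 3.58.1 (R 4.3.3, trend option) on log2(value + 1), with Benjamini-Hochberg adjustment over all of them. Calls used an adjusted p of at most 0.15. Alternatives were edgeR 4.0.16 (robust quasi-likelihood, 11486 genes), DESeq2 1.42.0, other pseudocounts, filters and scaling, a replicate block, and fits without libraries. Across genes, libraries that share a number deviated together from their group means (r = 0.296, 0.268 and 0.284), and other pairs had r of -0.0475 or lower. Deviations within a group cancel for each gene, so positive values for same-numbered pairs force the others negative on balance. Those negative values are therefore no separate support for the block. The fit with the block is given beside the main fit, which was designed without it. No label says what the numbers stand for. Over the 31 members alone, Itpkb-/- library 3 correlated more with wild-type library 2 (r = 0.348) than with wild-type library 3 (0.176).

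The members and lists were chosen with earlier results of these data known. Genes named with each library's value are members that were called, did not overlap, regulate SREBP or had the 3 largest differences of their list, and, of each related list, called genes or the 2 with the smallest p. Other members and the 4 oxidation genes that rose with the block were added after their values were seen. So were Dgat2, Pcyt1a, the 3 Fads genes and the markers named singly. Some related genes that the rule or the lists would name are not reported here. Positions, overlaps and 50-base stretches come from GENCODE M21 (mm10), with exon lengths from its basic transcripts. The limma script was tested on simulated data. Depth limits low genes: 3 reads, taken as the floor, are 0.393 to 0.746 normalized CPM, a limit that covers counting error only, since reads carry no molecular identifiers.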

Additional observations from a re-analysis of the deposited data

How the results depend on the processing

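Of 31 members, 2 were called, 7 with the replicate block, 1 with no filter on low values, 0 of 27 with a mean log2 above 4 required before the test (limma, 1 at an unadjusted p under 0.05), 0 to 6 without 1 library and 0 without both libraries numbered 2 (limma, 4 at an unadjusted p under 0.05), and edgeR and DESeq2 on all libraries called 2 each. Without wild-type library 3 none was called (limma, 2 at an unadjusted p under 0.05), without Itpkb-/- library 2, Itpkb-/- library 3 or wild-type library 1 the count was 1, and without Itpkb-/- library 1 it was 6. The 6 related genes called became 20 with the block, 3 with no filter, 2 with the stricter filter, 0 to 7 without 1 library and 0 without both libraries numbered 2 (limma, 11 at an unadjusted p under 0.05). In this balanced design the replicate block leaves every estimate as it is, and it moved the count over all genes from 661 to 2176, which was 64 to 839 without 1 library. The members' median log2 difference was negative in the 15 alternatives, from -0.29 to -0.11 (with the block it equals the main value by construction), and the median shift of all genes under median-of-ratios scaling was 0.00441. Scd2 was called in 8 of the 15. The stricter filter leaves Scd1 untested and tests fewer genes, and a fit without 1 library has fewer samples. For the other changes the cause was not tested.

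Of the single genes, 10 changed sign in at least 1 alternative, 22 values in all and none of them called. Mvk was at -0.055 with edgeR, -0.046 with DESeq2 and -0.32 without both libraries numbered 2, where Fdps was at -0.17. Without 1 library the log2 difference ranged from -0.30 to 0.24 for Mvk, -0.013 to 0.68 for Mvd, -0.052 to 0.35 for Fdps, -0.18 to 0.23 for Nsdhl, -0.051 to 0.16 for Ebp, -0.35 to 0.019 for Sc5d, -0.12 to 0.68 for Tm7sf2, -0.050 to 0.34 for Insig2, -0.054 to 0.095 for Acly and -0.10 to 0.16 for Acaca.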
